A study of Mus musculus with 14 samples.

Results

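The kidney transcriptome was compared between preterm-born female mice that had been made hyperglycaemic with streptozotocin (preterm diabetic, PT-D) and preterm-born females that had not (preterm non-diabetic, PT-ND). The comparison used 6 of the 14 libraries in the series, 3 from PT-D and 3 from PT-ND, chosen by the group name in the sample titles. Each library was made from the whole kidney of 1 mouse of the outbred CD-1 stock, labelled wild type, at 18 weeks of age. Pups of both groups were delivered by Caesarean section before term and raised by foster mothers that were given acepromazine, so these exposures were shared and did not differ between the groups compared. Streptozotocin was injected into the peritoneum of young adult PT-D mice at a low dose on consecutive days, and the study repeated the course in mice whose glucose stayed low. Neither the litter of each mouse nor the mice given the second course are named in the labels. All mice received cationic ferritin, an iron-loaded tracer for glomerular imaging, before the kidneys were taken. The other 8 libraries, 4 from term-born diabetic (T-D) and 4 from term-born non-diabetic (T-ND) females, are used only where the effect of streptozotocin is compared between preterm- and term-born mice.

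Streptozotocin enters the insulin-producing beta cells of the pancreas through the glucose transporter GLUT2 and alkylates their DNA, which lowers insulin and raises blood glucose. The kidney filters this glucose in the glomerulus, where podocytes and endothelial cells share a basement membrane, and the proximal tubule takes it back. The proximal tubule also expresses GLUT2, so the drug can reach the kidney itself, and a streptozotocin effect in the kidney cannot be told apart from an effect of the hyperglycaemia in this design. In whole-kidney RNA, fewer cells of a type and less RNA per cell cannot be told apart.

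Between 18188647 and 26187982 reads per library were counted on genes, 18188647 to 18922371 in PT-ND and 21079460 to 26187982 in PT-D. Of 56980 gene identifiers, 22339 had a total above 10 over the 14 libraries, and 22303 of them had a count in the 6 libraries and were tested. Values given below per library are normalized counts, that is counts scaled to the mean effective size of the 6 libraries, and each set of 3 is given in the order of replicates 1, 2 and 3. In a principal component analysis of the 500 most variable genes, the first component held 45.6% of the variance and separated the groups, from -30.6 to -15.6 in PT-ND and from 16.7 to 34.7 in PT-D. Log2 values of 12347 genes correlated at 0.956 to 0.975 within PT-ND, 0.948 to 0.970 within PT-D and 0.894 to 0.939 between groups. Mitochondrially encoded transcripts took 10.7 to 13.0% of the counts in PT-ND and 11.1 to 16.9% in PT-D, highest in PT-D replicate 1. Kidney identity was evident in every library, with the proximal tubule receptor megalin (Lrp2) at 36779.8, 34428 and 36242 in PT-ND and 17900.3, 31398 and 37383 in PT-D and uromodulin (Umod), the secreted protein of the thick ascending limb, at 26728, 38861 and 28885 in PT-ND and 26604, 12225 and 16241 in PT-D.

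PT-D and PT-ND differed in 1105 genes at an adjusted p under 0.05 and an absolute log2 fold change above 1 (DEGs), which is 4.95% of the genes tested. Of these, 661 (2.96% of the genes tested) were higher in PT-D and 444 (1.99%) were lower. An adjusted p under 0.05 alone was reached by 2881 genes (12.9%), 1593 (7.14%) higher and 1288 (5.78%) lower, and these percentages are the background for the gene lists below, whose members are called changed at the same threshold. The groups did not overlap for 34.4% of all genes tested. Protein-coding genes made up 598 of the higher and 364 of the lower DEGs, and long non-coding RNAs 37 and 57. The DEG count depended on single libraries, falling to 627 without PT-ND replicate 2, to 594 without PT-ND replicate 3 and to 719 without PT-D replicate 3.

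Laminin alpha 3 (Lama3), a chain of the epithelial basement membrane protein laminin-332, was among the most strongly changed genes. Its normalized counts were 50.0, 45.7 and 34.4 in PT-ND and 613, 504 and 729 in PT-D (log2 fold change 3.82, SE 0.23, adjusted p = 4.65e-05). The transcribed pseudogene Gm21399 (chr8:129979479-129980075, GRCm39) was measured at 37.7, 21.7 and 20.9 in PT-ND and 520.3, 503 and 669.8 in PT-D (log2 fold change 4.38, SE 0.27, adjusted p = 4.65e-05). Neuregulin 1 (Nrg1), a ligand of ErbB receptors, had 176, 242 and 229.6 in PT-ND and 1299, 1017 and 1631 in PT-D (log2 fold change 2.61, SE 0.21, adjusted p = 0.000382). These genes were chosen among DEGs without overlap between the groups, so their separation was fixed by the choice.

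The polymeric immunoglobulin receptor (Pigr), which carries IgA and IgM across epithelia, rose from 1065 ± 122 in PT-ND to 4217 ± 905 in PT-D (SD, n = 3 each; log2 fold change 1.99, SE 0.19, adjusted p = 0.00084). Serum amyloid A4 (Saa4), an apolipoprotein of the serum amyloid A family, rose from 16.3 ± 5.55 in PT-ND to 345 ± 165 in PT-D (log2 fold change 4.40, SE 0.42, adjusted p = 0.00084). Guanine deaminase (Gda) of purine breakdown rose by 1.68 on the log2 scale (adjusted p = 0.00116), and the fatty acid omega-hydroxylase gene Cyp4a12b rose by 4.02 on the log2 scale (adjusted p = 0.00084). Cyp4a12b has a close paralog, Cyp4a12a, so the split of reads between them is uncertain. The call of Saa4 (adjusted p up to 0.0543) was lost in the 14-library fit.

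Among the genes that fell, Vwa1, which encodes a matrix protein with a von Willebrand factor A domain, was first in the order of adjusted p. Its normalized counts were 3110.4, 2997 and 2737 in PT-ND and 262, 384 and 307 in PT-D (log2 fold change -3.21, SE 0.18, adjusted p = 4.33e-05). Glypican 5 (Gpc5), a heparan sulfate proteoglycan of the cell surface, was measured at 319, 436 and 404 in PT-ND and 28.1, 8.01 and 24.7 in PT-D (log2 fold change -4.26, SE 0.39, adjusted p = 0.00084). Aminoacylase 1 (Acy1), which frees amino acids from their N-acetylated forms, was an abundant transcript at 10862, 14032 and 14273 in PT-ND and 3096, 4113 and 4645 in PT-D (log2 fold change -1.72, SE 0.19, adjusted p = 0.00176). Lack of overlap between the groups was a condition for choosing all 3 genes.

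The long non-coding RNA BC018473 (chr11:116642993-116650199, GRCm39) was read in PT-ND and not in PT-D. It had 313, 1221 and 873 in PT-ND and 0, 0 and 0 in PT-D, which is at least 306-fold lower in PT-D when the PT-D mean is set to 3 counts per library (adjusted p = 0.00084). The same RNA was at 0 in 7 of the 8 term libraries and had 2.44 normalized counts in the other, T-D replicate 2, on the scale of all 14 libraries. PT-ND was thus the group that stood apart for this RNA. Lama3 had the same feature in the other direction. On the 14-library scale it had 295 to 733 in T-ND, 380.5 to 558 in T-D, 474 to 685 in PT-D and 32.3 to 46.9 in PT-ND. For Gm21399 it was PT-D that stood apart, with 472 to 629 against 19.6 to 35.5 in PT-ND and 13.6 to 42.5 over the term libraries.

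Connexin 32 (Gjb1), a gap junction protein, fell by 1.35 on the log2 scale (adjusted p = 0.00165), and the lysoplasmalogenase gene Tmem86a by 1.96 (adjusted p = 0.00116). The imprinted gene Nap1l5 (log2 -2.35, adjusted p = 0.00084), the non-coding C330002G04Rik (log2 -3.03, adjusted p = 0.0018) and Catspere2, a gene of the CatSper channel complex (log2 -2.91, adjusted p = 0.0018), also fell. Cholesterol 25-hydroxylase (Ch25h), an enzyme that makes the oxysterol 25-hydroxycholesterol, was at 252, 229 and 263 in PT-ND and 55.3, 32.8 and 55.3 in PT-D (log2 fold change -2.37, SE 0.28, adjusted p = 0.00192). An 18S ribosomal RNA sequence, Rn18s-rs5, was lower in PT-D with 197326, 166656 and 306885 in PT-ND and 39207, 50382 and 45849.6 in PT-D (log2 fold change -2.31, SE 0.25, adjusted p = 0.00166). Poly-A selection removes most ribosomal RNA, and the level of this transcript is that of the remainder. It had 103539 to 231977 in T-ND and 145282 to 679530.0 in T-D on the 14-library scale. Its part in the other results was not tested.

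**Figure D1:**
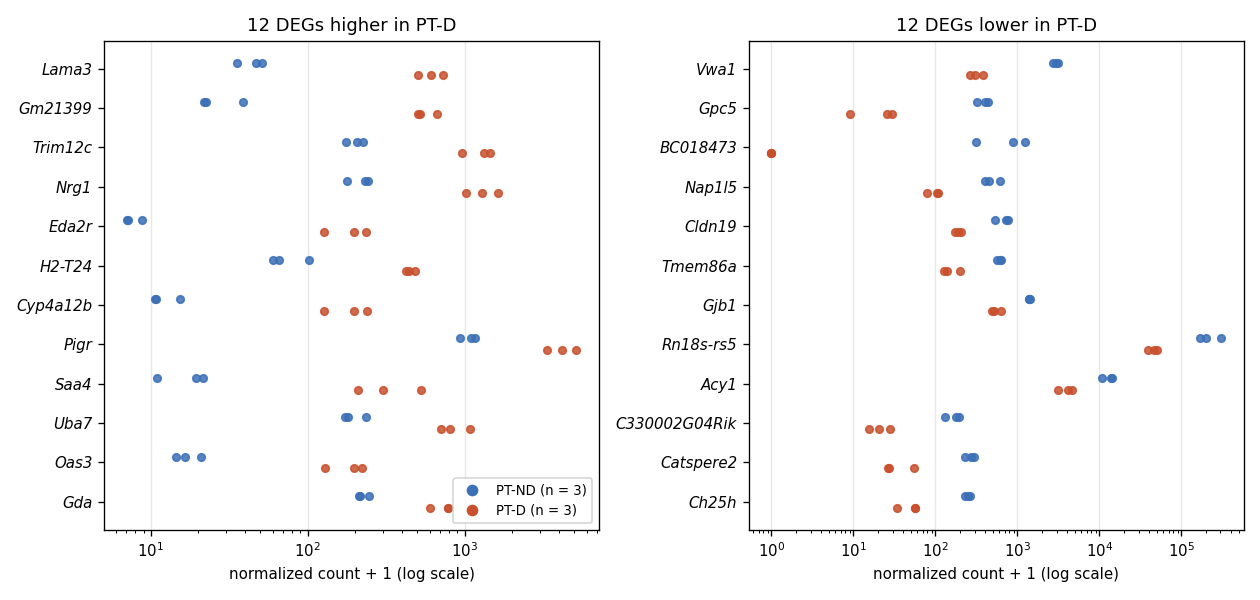
Normalized counts plus 1, on a log axis, of the 12 higher (left) and 12 lower (right) DEGs with the smallest adjusted p among genes with a mean of at least 50 and no overlap between groups. Each point is 1 kidney, blue for PT-ND and orange for PT-D. The 3 PT-D points of BC018473 lie at a count of 0.

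The p53 pathway is switched on by DNA damage and other stress, and its target genes arrest the cell cycle, repair DNA or start cell death. Of 30 p53 target genes, 14 rose and 1 fell in PT-D, with a median log2 fold change of 0.79 against 0.05 over all genes tested. Ectodysplasin A2 receptor (Eda2r), a receptor of the TNF receptor family, had 7.77, 6.02 and 6.14 in PT-ND and 125, 195 and 234 in PT-D (log2 fold change 4.77, SE 0.39, adjusted p = 0.000382). Psrc1, a spindle-associated protein, had 6.66, 9.63 and 14.7 in PT-ND and 174, 112 and 186 in PT-D (log2 fold change 3.92, SE 0.40, adjusted p = 0.00116). For these near-silent genes the PT-D kidneys held more than 10 times the PT-ND level.

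Cyclin G1 (Ccng1), which recruits phosphatase to MDM2, was at 3648, 3156 and 4180.1 in PT-ND and 8054, 10901 and 9749.5 in PT-D (log2 fold change 1.39, SE 0.17, adjusted p = 0.00271). Zmat3, an RNA-binding p53 target, was at 323, 252 and 257 in PT-ND and 768, 876 and 1059 in PT-D (log2 fold change 1.70, SE 0.18, adjusted p = 0.00119). The cyclin-dependent kinase inhibitor p21 (Cdkn1a) was at 3284, 2059.6 and 2325 in PT-ND and 5411, 3923 and 5028 in PT-D (log2 fold change 0.91, SE 0.20, adjusted p = 0.0178). Every PT-D library was above every PT-ND library for each of these genes. For the p53 targets, the number higher was 8 without PT-ND replicate 2, and the number lower was 0 without PT-ND replicates 2 or 3 and 2 in DESeq2. The summed level of the list was 21991 to 25058 in PT-ND and 34864 to 42057 in PT-D. The call of Cdkn1a (adjusted p up to 0.172) was lost without PT-ND replicates 2 or 3 or PT-D replicate 3 or in the 14-library fit.

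Interferon-stimulated genes carry the antiviral response that type I and type II interferons start through STAT2 and interferon regulatory factors. Of 23 tested interferon-stimulated genes, 17 rose and 0 fell, and the fold change was above 0 for all 23, with a median log2 of 1.56. Ifi44 had 295, 262 and 379 in PT-ND and 1666, 1049 and 1156 in PT-D (log2 fold change 2.05, SE 0.21, adjusted p = 0.00119). The synthetases that make 2'-5'-oligoadenylates and so activate RNase L rose together. Oas2 had 86.6, 24.1 and 83.5 in PT-ND and 704, 558 and 557 in PT-D (log2 fold change 3.22, SE 0.37, adjusted p = 0.0018), Oasl2 had a log2 fold change of 1.97 (adjusted p = 0.00249), and Oas3 was measured at 20.0, 15.6 and 13.5 in PT-ND and 195, 129 and 221 in PT-D (log2 fold change 3.46, SE 0.34, adjusted p = 0.00111). PT-D replicate 1 was the highest library for Ifi44, Oas2 and Oasl2.

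The transcription factor Stat2 was at 1423, 1065 and 1224 in PT-ND and 4882, 2441 and 3631 in PT-D (log2 fold change 1.56, SE 0.23, adjusted p = 0.00475). Uba7, the enzyme that activates the ubiquitin-like protein ISG15, was at 234, 171 and 181 in PT-ND and 1089, 703 and 809 in PT-D (log2 fold change 2.15, SE 0.21, adjusted p = 0.000885), and Trim12c, a tripartite-motif gene of the TRIM5 family, at 225, 173 and 204 in PT-ND and 1444, 963 and 1328 in PT-D (log2 fold change 2.63, SE 0.19, adjusted p = 0.000216). Trim12c belongs to a cluster of near-identical genes, so its reads may be split among them. The count of interferon-stimulated genes called higher was 15 without PT-D replicate 1 and 13 to 21 over the 6 fits that each left out 1 library, and it was 5 in a fit that took the spread from all 14 libraries (the 14-library fit). Their summed level was 24649 to 38672 in PT-ND and 48564 to 135792 in PT-D, with the highest PT-D value in replicate 1. The call of Stat2 (adjusted p up to 0.0504) was lost in the 14-library fit.

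Promoters of these genes often hold the interferon-stimulated response element, in which the letters GAAA recur. The 250 bases upstream of the annotated start are printed for 3 of the genes above, whose RefSeq promoters held GAAANNGAAA on either strand, to show where these letters lie, with each match in capitals (mouse build GRCm38.p6, strand of the gene).
Trim12c, chr7:104353350-104353599, minus strand: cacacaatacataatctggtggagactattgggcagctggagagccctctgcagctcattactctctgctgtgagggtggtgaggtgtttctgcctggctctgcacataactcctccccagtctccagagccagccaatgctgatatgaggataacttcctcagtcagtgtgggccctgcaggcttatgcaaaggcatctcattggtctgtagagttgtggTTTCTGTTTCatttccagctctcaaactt
Oas3, chr5:120777660-120777909, minus strand: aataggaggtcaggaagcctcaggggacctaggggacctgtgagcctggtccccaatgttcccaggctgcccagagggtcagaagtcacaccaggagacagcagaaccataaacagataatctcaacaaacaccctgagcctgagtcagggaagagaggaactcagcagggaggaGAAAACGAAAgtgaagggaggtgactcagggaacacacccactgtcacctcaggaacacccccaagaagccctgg
Stat2, chr10:128270248-128270497, plus strand: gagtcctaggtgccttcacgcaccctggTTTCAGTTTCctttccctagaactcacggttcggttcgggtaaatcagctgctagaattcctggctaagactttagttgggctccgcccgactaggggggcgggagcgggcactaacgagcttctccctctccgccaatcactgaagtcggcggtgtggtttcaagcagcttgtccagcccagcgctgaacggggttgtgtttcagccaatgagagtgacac
The match began 29 bases before the start in Trim12c, 75 in Oas3 and 222 in Stat2. Over the 300-base windows from 250 before to 50 after the start, these letters were found in 530 of 13801 tested genes with a promoter in the table (3.84%). They were found in 10 of 15 interferon-stimulated genes with a promoter (66.7%), in 55 of 462 higher DEGs (11.9%) and in 16 of 316 lower DEGs (5.06%). A match of letters is a description of the sequence and does not show that a factor binds there.

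Antigen presentation by MHC class I is itself induced by interferon. Of 18 genes of MHC and antigen presentation, 8 rose and 0 fell (median log2 0.69). Nlrc5, the transactivator of class I genes, had 249, 108 and 274 in PT-ND and 1822, 674 and 1436 in PT-D (log2 fold change 2.64, SE 0.39, adjusted p = 0.00462). Tap2, a subunit of the peptide transporter into the endoplasmic reticulum, had 531, 435 and 569 in PT-ND and 1717, 934 and 1872 in PT-D (log2 fold change 1.56, SE 0.24, adjusted p = 0.0053). The immunoproteasome subunit gene Psmb9 (log2 1.37, adjusted p = 0.0112) and the loading factor tapasin (Tapbp; log2 0.94, adjusted p = 0.0121) rose as well. H2-T24, a non-classical class I gene, rose from 75.0 ± 22.7 in PT-ND to 449.8 ± 29.1 in PT-D (SD, n = 3 each; log2 fold change 2.58, SE 0.24, adjusted p = 0.00084), and since class I genes are alike in sequence its reads may be split with relatives. For these genes, the number higher was 1 in the 14-library fit, 2 without PT-ND replicate 2 and 5 without PT-ND replicate 3 or PT-D replicate 3. The call of Tap2 (adjusted p up to 0.0531) was lost in the 14-library fit. The calls of Psmb9 (adjusted p up to 0.0826) and Tapbp (adjusted p up to 0.0777) were lost without PT-ND replicate 2 or in the 14-library fit.

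**Figure D2:**
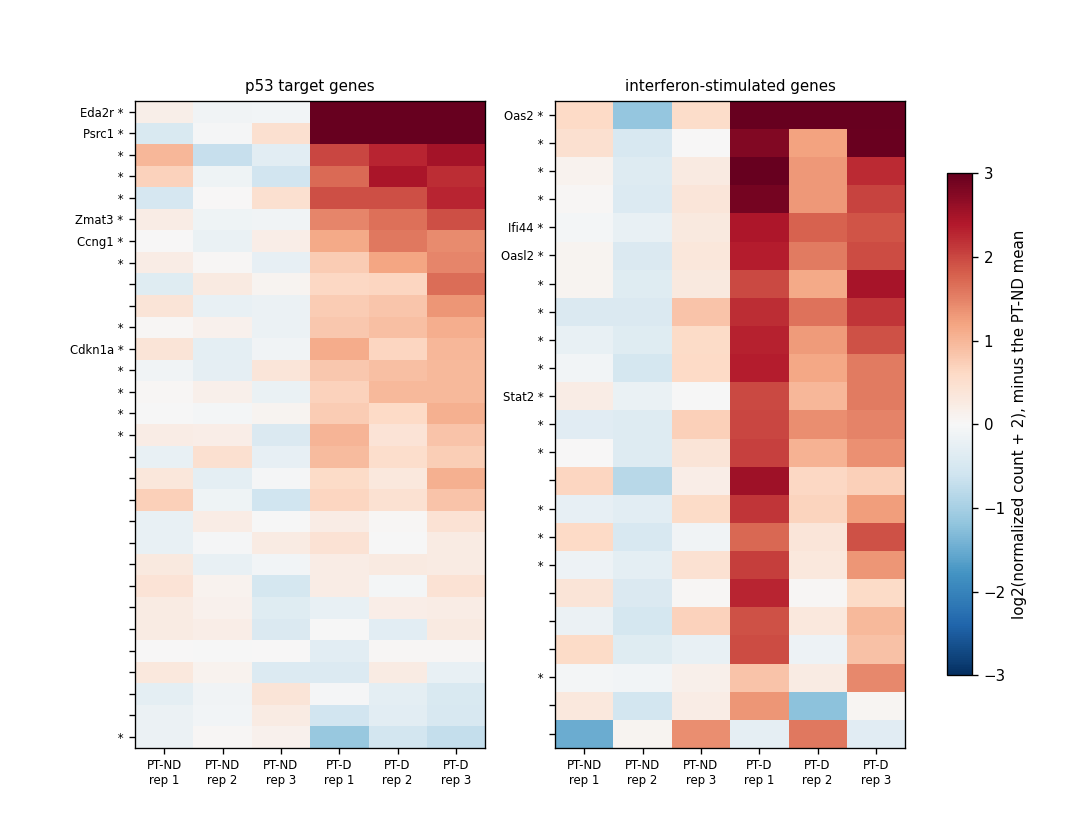
Log2 of the normalized count plus 2 in each kidney, minus the PT-ND mean, for 30 p53 target genes (left) and 23 interferon-stimulated genes (right), ordered by fold change, with the genes described in the text labelled. Red is above and blue below the PT-ND mean, an asterisk marks an adjusted p under 0.05, and the colour scale ends at 3 in either direction. The interferon-stimulated genes are highest in PT-D replicate 1 and least raised in PT-D replicate 2.

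Genes of neutrophils, the first granulocytes to enter injured tissue, were at low levels, and some were higher in PT-D. Of 15 tested, 6 rose, 0 fell and 9 passed in neither direction (median log2 1.71). The granule proteins neutrophilic granule protein (Ngp), 15.5, 16.9 and 28.2 in PT-ND and 422, 99.3 and 112 in PT-D, and lactotransferrin (Ltf), 11.1, 10.8 and 18.4 in PT-ND and 194, 56.0 and 71.5 in PT-D, had log2 fold changes of 3.38 and 2.98 (adjusted p = 0.00746 and 0.00858). The collagenase Mmp8 was at 11.1, 28.9 and 16.0 in PT-ND and 183, 112 and 98.7 in PT-D (log2 fold change 2.81, SE 0.43, adjusted p = 0.00508) and the gelatinase Mmp9 at 5.55, 14.4 and 12.3 in PT-ND and 160.2, 71.3 and 70.6 in PT-D (log2 fold change 3.22, SE 0.50, adjusted p = 0.00547). PT-D replicate 1 had the highest value of all 4 genes, and without it 6 genes of the list were called higher and 2 lower, with a median log2 of 0.98. The summed level of the list overlapped between the groups, at 1396 to 2022 in PT-ND and 1965 to 6808 in PT-D.

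Of 20 monocyte and macrophage genes, 4 rose and 0 fell (median log2 0.11). That median was -0.13 without PT-ND replicate 2 and 0.35 without PT-ND replicate 1. The lipopolysaccharide co-receptor Cd14 had 1529, 1343 and 1326 in PT-ND and 2867, 2545 and 6684 in PT-D (log2 fold change 1.53, SE 0.31, adjusted p = 0.0133), with PT-D replicate 3 the highest, and Adgre1, which encodes the macrophage antigen F4/80, had 82.1, 91.5 and 90.9 in PT-ND and 142, 211 and 202 in PT-D (log2 fold change 1.07, SE 0.25, adjusted p = 0.0224). For the macrophage list, the number higher was 0 without PT-ND replicate 2 or in the 14-library fit and 1 without PT-ND replicate 3 or PT-D replicates 2 or 3. Of 20 T, NK and B lymphocyte genes, 1 rose, Ptprc (CD45, a marker of all leukocytes), with 235, 131 and 119 in PT-ND and 264, 299 and 371 in PT-D (log2 fold change 0.94, SE 0.28, adjusted p = 0.0469). For the lymphocyte list, the number higher was 0 without PT-ND replicates 2 or 3 or PT-D replicates 2 or 3 or in the 14-library fit or after the length correction and 3 without PT-ND replicate 1. The call of Cd14 (adjusted p up to 0.0633) was lost without PT-ND replicates 2 or 3 or in the 14-library fit. The call of Adgre1 (adjusted p up to 0.1) was lost without PT-ND replicates 2 or 3 or PT-D replicates 2 or 3 or in the 14-library fit. The call of Ptprc (adjusted p up to 0.159) was lost without PT-ND replicates 2 or 3 or PT-D replicates 2 or 3 or under upper-quartile scaling or with the filter on the 6 libraries or in the 14-library fit or after the length correction.

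Tubular injury markers are genes that damaged tubule cells turn on. Of 24, 9 rose and 1 fell (median log2 0.55). Lipocalin 2 (Lcn2, NGAL), an iron-siderophore carrier, had 753, 593 and 643 in PT-ND and 3126, 3244 and 7227 in PT-D (log2 fold change 2.77, SE 0.31, adjusted p = 0.0017). Clusterin (Clu), a secreted chaperone, had 7990.2, 7201 and 5213 in PT-ND and 16247, 12804 and 17444 in PT-D (log2 fold change 1.19, SE 0.20, adjusted p = 0.00678). Fibrinogen alpha (Fga) had 3336, 1347 and 653 in PT-ND and 7404, 17177 and 25189 in PT-D (log2 fold change 3.22, SE 0.57, adjusted p = 0.00807), and its level varied over 3-fold within each group. Chemokine Ccl2, which attracts monocytes, fell, with 2444, 1969 and 1911 in PT-ND and 929.9, 302 and 446 in PT-D (log2 fold change -1.92, SE 0.34, adjusted p = 0.00775). The calls of Lcn2 (adjusted p up to 0.0604) and Fga (adjusted p up to 0.0698) were lost in the 14-library fit.

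Kidney injury molecule 1 (Havcr1), a phagocytic receptor of injured proximal tubule, was high in 2 of the 3 PT-D kidneys and not in the other. It had 123, 87.9 and 129 in PT-ND and 104, 1702 and 1397 in PT-D (log2 fold change 3.24, SE 0.73, adjusted p = 0.0185), so PT-D replicate 1 lay inside the PT-ND range and the groups overlapped. For the injury markers, the number higher was 3 in the 14-library fit and 4 without PT-ND replicate 2. The call of Havcr1 (adjusted p up to 0.0722) was lost without PT-ND replicates 2 or 3 or in the 14-library fit.

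No gene of sugar uptake in the proximal tubule passed the edgeR test. Of 17 genes of sugar, phosphate and protein uptake, 0 rose and 0 fell at an adjusted p under 0.05 (edgeR quasi-likelihood; median log2 -0.31). The main glucose cotransporter SGLT2 (Slc5a2) was at 8836, 7751 and 8599.6 in PT-ND and 10180.5, 9808 and 8542 in PT-D (log2 fold change 0.18, SE 0.15, adjusted p = 0.467), SGLT1 (Slc5a1) at 1741, 1523 and 1589 in PT-ND and 1627, 2361 and 3827 in PT-D (log2 fold change 0.69, SE 0.26, adjusted p = 0.103), and GLUT2 (Slc2a2) at 3042, 2085 and 2089 in PT-ND and 2914, 3223 and 2888 in PT-D (log2 fold change 0.32, SE 0.17, adjusted p = 0.25). The groups overlapped for each of these transporters, and for megalin (log2 -0.31, adjusted p = 0.433). Slc5a1 was called higher with no filter on low counts (adjusted p = 0.00703) and without PT-D replicate 1 (adjusted p = 0.0172). Slc2a2 was called higher without PT-ND replicate 1 (adjusted p = 0.0487). Of the 17 genes, 2 were higher and 6 lower at an unadjusted p under 0.05. DESeq2 called 1 higher and 6 lower, and upper-quartile scaling called 5 lower. For the uptake genes, the number higher was 2 without PT-ND replicate 1 or PT-D replicate 1, and the number lower was 6 in DESeq2. Their median was -0.06 without PT-D replicate 1 and -0.37 without PT-D replicate 2.

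Glucose production in the kidney runs through Pck1 and G6pc1, and the groups overlapped for both. Pck1, phosphoenolpyruvate carboxykinase, had 142886, 99851 and 94032 in PT-ND and 92061, 116984 and 79415 in PT-D (log2 fold change -0.22, SE 0.22, adjusted p = 0.556), and G6pc1, glucose-6-phosphatase, had 28176, 22030.5 and 13344 in PT-ND and 14939, 20819 and 13949 in PT-D (log2 fold change -0.35, SE 0.26, adjusted p = 0.405). Among 18 genes of gluconeogenesis and insulin signalling, 3 rose and 1 fell. Those that rose were Pik3r1, the regulatory subunit of PI3-kinase (log2 0.89, adjusted p = 0.0112), the insulin receptor substrate Irs2 (log2 1.03, adjusted p = 0.016) and Igfbp1, an insulin-repressed binding protein of insulin-like growth factors (log2 1.21, adjusted p = 0.0242). Igfbp1 was at 492, 506 and 418 in PT-ND and 648, 1702 and 911 in PT-D. For this list, the number higher was 0 without PT-ND replicate 2, 1 without PT-ND replicate 3 and 5 without PT-D replicate 1, and the number lower was 0 without PT-ND replicates 2 or 3 or PT-D replicates 1, 2 or 3 and 2 in DESeq2. The call of Pik3r1 (adjusted p up to 0.0584) was lost without PT-ND replicate 2. The call of Irs2 (adjusted p up to 0.0604) was lost without PT-ND replicates 2 or 3 or in the 14-library fit. The call of Igfbp1 (adjusted p up to 0.0956) was lost without PT-ND replicates 2 or 3.

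In fatty acid oxidation and ketogenesis, 1 of 26 genes rose and 2 fell. Angptl4, an inhibitor of lipoprotein lipase, had 3561, 3050.2 and 2958 in PT-ND and 5961, 4992 and 5831 in PT-D (log2 fold change 0.81, SE 0.15, adjusted p = 0.00965), the peroxisomal thiolase Acaa1b had 9967, 10994 and 10772 in PT-ND and 6217, 6098 and 5891 in PT-D (log2 fold change -0.80, SE 0.14, adjusted p = 0.00796), and the ketone body enzyme Bdh1 fell by 1.37 on the log2 scale (adjusted p = 0.0309). For the oxidation list, the number higher was 0 without PT-ND replicate 2 or in the 14-library fit, 2 in DESeq2 and 3 without PT-ND replicate 1 or PT-D replicates 1 or 2, and the number lower was 1 without PT-ND replicates 2 or 3 or PT-D replicate 2. In cholesterol synthesis, 0 of 24 genes rose and 3 fell. The enzyme of the last step, Dhcr7, had 414, 471 and 736 in PT-ND and 246, 251 and 248 in PT-D (log2 fold change -1.12, SE 0.22, adjusted p = 0.011), while the median of the list was 0.04. For cholesterol synthesis, the number higher was 2 without PT-D replicate 1. The call of Angptl4 (adjusted p up to 0.162) was lost without PT-ND replicate 2 or in the 14-library fit. The call of Bdh1 (adjusted p up to 0.0946) was lost without PT-ND replicates 2 or 3 or PT-D replicate 2.

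Of 20 NRF2, heme and antioxidant genes, 5 fell and 0 rose (median log2 -0.20). Biliverdin reductase B (Blvrb) had 445, 698 and 812 in PT-ND and 290.2, 329.9 and 265 in PT-D (log2 fold change -1.14, SE 0.22, adjusted p = 0.0106), the glutathione transferase Gsta2 had 11746, 12716 and 14922 in PT-ND and 7159.8, 8219.9 and 6057 in PT-D (log2 fold change -0.88, SE 0.17, adjusted p = 0.0111), and the superoxide dismutase Sod1 had 11007, 15003 and 17929 in PT-ND and 7758, 8937 and 7952 in PT-D (log2 fold change -0.83, SE 0.19, adjusted p = 0.0196). Ferritin light chain (Ftl1), which stores iron, fell by 1.14 on the log2 scale (adjusted p = 0.0226). Heme oxygenase 1 (Hmox1), which degrades heme, was at 28964, 43959 and 73619 in PT-ND and 63601, 75410.0 and 81378 in PT-D (log2 fold change 0.59, SE 0.29, adjusted p = 0.208) and was high in all 6 preterm kidneys. It was called higher without PT-ND replicate 3 (adjusted p = 0.0407) and after the length correction (adjusted p = 0.0313). For the antioxidant list, the number higher was 2 in DESeq2 and 3 without PT-D replicate 1, and the number lower was 3 without PT-ND replicates 2 or 3 or PT-D replicate 3 or in the 14-library fit. Among 17 genes of conjugation, 1 rose and 2 fell, led by the transferase Gstp1 with 4949.8, 4740.2 and 5773 in PT-ND and 1731, 2810.4 and 1812 in PT-D (log2 fold change -1.28, SE 0.20, adjusted p = 0.00547). For the conjugation list, the number higher was 0 without PT-ND replicates 1, 2 or 3 or PT-D replicates 2 or 3 or in the 14-library fit, 2 without PT-D replicate 1, 3 in DESeq2 and 4 after the length correction, and the number lower was 1 without PT-ND replicates 2 or 3 or PT-D replicate 3. The call of Gsta2 (adjusted p up to 0.0731) was lost in the 14-library fit. The call of Sod1 (adjusted p up to 0.0723) was lost without PT-ND replicates 2 or 3 or PT-D replicate 3. The call of Ftl1 (adjusted p up to 0.0709) was lost after the length correction.

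Of 18 cytochrome P450 genes, 7 rose and 1 fell, with a median log2 of -0.11. Beside Cyp4a12b these included its paralog Cyp4a12a, at 111, 238 and 104 in PT-ND and 739.7, 432 and 526 in PT-D (log2 fold change 1.90, SE 0.32, adjusted p = 0.00709) and the oxysterol hydroxylase Cyp7b1 (log2 2.00, adjusted p = 0.0107). Cyp4a12a and Cyp7b1 are higher in the male than in the female mouse kidney. Of 12 male-biased kidney genes 5 rose and 1 fell, and of 10 female-biased genes 0 rose and 3 fell (medians 0.85 and -1.03). Fmo5, a flavin monooxygenase of the female-biased list, fell from 198 ± 54.7 in PT-ND to 43.0 ± 20.3 in PT-D (SD, n = 3 each; log2 fold change -2.20, SE 0.37, adjusted p = 0.00685). The androgen-regulated proximal tubule transcript Kap of the male-biased list, chosen after its values were seen, had 131730.0, 346069 and 304273 in PT-ND and 5938, 57460.1 and 94064 in PT-D (log2 fold change -2.31, adjusted p = 0.0588), without overlap. The female-biased transporter Slc7a12, chosen in the same way, was lowest in PT-D replicate 1, at 109 against 1169 and 2210.4 in the other PT-D kidneys and 2111 to 3334 in PT-ND. For the P450 genes, the number higher was 4 without PT-ND replicate 3, and the number lower was 0 without PT-ND replicates 2 or 3 or PT-D replicate 2. For the male-biased list, the number higher was 3 without PT-ND replicate 3 or PT-D replicate 2 or in the 14-library fit, and the number lower was 0 without PT-ND replicates 2 or 3 or PT-D replicate 2, 2 without PT-ND replicate 1 or PT-D replicate 1 and 3 in DESeq2. The median of the male-biased list was 0.18 without PT-D replicate 2. For the female-biased list, the number lower was 1 in the 14-library fit and 5 without PT-D replicate 3. Its median ran from -1.35 to -0.59 over the fits that each left out 1 library. Of 16 organic anion and cation transporters 1 rose and 1 fell, the efflux pump Abcc4 (log2 0.79, adjusted p = 0.0163) and the urate transporter Slc22a12 (log2 -0.94, adjusted p = 0.0281). For the transporters, the number higher was 0 without PT-ND replicates 2 or 3 or PT-D replicate 3, 2 without PT-ND replicate 1 or in DESeq2 and 3 without PT-D replicate 1, and the number lower was 0 without PT-ND replicate 3 or PT-D replicate 3 or after the length correction and 2 without PT-D replicate 1 or in DESeq2. The call of Abcc4 (adjusted p up to 0.0729) was lost without PT-ND replicates 2 or 3 or PT-D replicate 3. The call of Slc22a12 (adjusted p up to 0.0881) was lost without PT-ND replicate 3 or PT-D replicates 1 or 3 or after the length correction.

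Podocytes are the epithelial cells that hold the filtration slit. Of 19 podocyte markers 8 rose and 0 fell, and 18 of the 19 had a fold change above 0 (median log2 0.53). These are RNA levels of the whole kidney. By staining, the study reported a lower podocyte density in PT-D than in PT-ND. Cd2ap, an adaptor of the slit diaphragm, had 1634, 1479 and 1234 in PT-ND and 2699, 2740.0 and 3319 in PT-D (log2 fold change 1.01, SE 0.16, adjusted p = 0.00576). Synaptopodin (Synpo), an actin-binding protein, had 1051, 667 and 738 in PT-ND and 2376, 1693 and 1383 in PT-D (log2 fold change 1.15, SE 0.23, adjusted p = 0.0118). Nephrin (Nphs1), the main protein of the slit, had 708, 394 and 451 in PT-ND and 1284, 966 and 918 in PT-D (log2 fold change 1.03, SE 0.23, adjusted p = 0.0176), and the transcription factor Wt1 had 269.7, 173 and 214 in PT-ND and 396, 464 and 385 in PT-D (log2 fold change 0.92, SE 0.20, adjusted p = 0.0171). The groups did not overlap for any of these genes, though PT-ND replicate 1 was the highest PT-ND library for each. For the podocyte markers, the number higher was 1 without PT-ND replicate 2, 2 without PT-ND replicate 3, 3 in the 14-library fit and 5 without PT-D replicate 2. The call of Synpo (adjusted p up to 0.0571) was lost without PT-ND replicates 2 or 3. The call of Nphs1 (adjusted p up to 0.121) was lost without PT-ND replicates 2 or 3 or in the 14-library fit. The call of Wt1 (adjusted p up to 0.0721) was lost without PT-ND replicates 2 or 3 or PT-D replicate 2 or in the 14-library fit.

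Endothelial markers changed in the same direction, 6 of 20 rising and 0 falling (median log2 0.56). The VEGF receptor gene Flt4 had 253, 219 and 185 in PT-ND and 828, 528 and 761 in PT-D (log2 fold change 1.68, SE 0.21, adjusted p = 0.00249). VE-cadherin (Cdh5), the adhesion protein of endothelial junctions, had 952, 634 and 457 in PT-ND and 1964, 1623 and 1706 in PT-D (log2 fold change 1.37, SE 0.23, adjusted p = 0.00726), and endothelial nitric oxide synthase (Nos3) had 61.1, 72.2 and 55.3 in PT-ND and 164, 169.7 and 148 in PT-D (log2 fold change 1.35, SE 0.26, adjusted p = 0.0105). Egfl7, a secreted vessel protein, rose by 1.53 on the log2 scale (adjusted p = 0.0112), with PT-D replicate 1 the highest. Of 30 genes of extracellular matrix and fibrosis 8 rose and 0 fell (median log2 0.53). Over the fits that each left out 1 library, 6 to 11 rose and 0 to 1 fell, with medians of 0.35 to 0.87. Beside Lama3, connective tissue growth factor (Ccn2) had 821, 885 and 916 in PT-ND and 2488, 2092 and 1965 in PT-D (log2 fold change 1.32, SE 0.15, adjusted p = 0.00178), and the basement membrane collagen chain Col4a2 had 3378, 2168 and 2078 in PT-ND and 5997, 5957 and 7406 in PT-D (log2 fold change 1.34, SE 0.21, adjusted p = 0.00508).

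Renin (Ren1), which starts the angiotensin cascade, was at 2360.0, 1156 and 1390.1 in PT-ND and 4705, 2489 and 3098 in PT-D (log2 fold change 1.07, SE 0.29, adjusted p = 0.0344), with no overlap but with PT-ND replicate 1 close to PT-D replicate 2. By staining, the study reported more renin-positive glomeruli in PT-D than in PT-ND. Of 14 genes of the renin-angiotensin system, 2 rose and 0 fell. For this system, the number higher was 0 without PT-ND replicates 2 or 3 or PT-D replicate 3 and 1 without PT-D replicates 1 or 2 or in the 14-library fit or after the length correction. The call of Ren1 (adjusted p up to 0.129) was lost without PT-ND replicates 2 or 3 or PT-D replicates 1 or 3.

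Along the distal nephron the changes were mixed. Of 18 markers of the loop of Henle and distal tubule 1 rose and 3 fell (median log2 -0.23). Claudin 19 (Cldn19), a tight junction protein through which the thick ascending limb takes up calcium and magnesium, had 538, 732 and 777 in PT-ND and 204, 188 and 171 in PT-D (log2 fold change -1.86, SE 0.19, adjusted p = 0.00111). Claudin 10 (Cldn10), which passes sodium in the same segment, had 3619.9, 4784 and 5140.4 in PT-ND and 1748, 1593 and 1278 in PT-D (log2 fold change -1.55, SE 0.18, adjusted p = 0.00214). The calcium channel Trpv5 of the distal tubule rose, with 289, 271 and 196 in PT-ND and 951, 712 and 815 in PT-D (log2 fold change 1.71, SE 0.19, adjusted p = 0.0017). Umod did not pass the threshold in edgeR (log2 -0.78, adjusted p = 0.0818), but it was called lower by DESeq2 (adjusted p = 0.0193), with library-name suffix as a covariate, with no filter on low counts and without PT-D replicate 1 (adjusted p = 0.0113). PT-D replicate 1 had the highest summed level of the list. For these markers, the number lower was 5 in DESeq2 and 8 without PT-D replicate 1. Their median was -0.56 without PT-D replicate 1 and -0.08 without PT-D replicate 3.

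Of 17 collecting duct markers 1 rose and 2 fell. The anion exchanger of acid-secreting intercalated cells, Slc4a1, had 889, 1109.8 and 739 in PT-ND and 360.1, 372 and 184 in PT-D (log2 fold change -1.58, SE 0.26, adjusted p = 0.00655), and Foxi1, the transcription factor of intercalated cells, had 571, 508 and 690.1 in PT-ND and 1269.7, 912 and 912 in PT-D (log2 fold change 0.81, SE 0.18, adjusted p = 0.019). The 2 genes, both of intercalated cells, moved in opposite directions. For the collecting duct markers, the number higher was 0 without PT-ND replicate 2, and the number lower was 1 without PT-ND replicates 2 or 3 or PT-D replicates 2 or 3 or in the 14-library fit or after the length correction, 4 in DESeq2 and 5 without PT-D replicate 1. Of 26 tested regulators of kidney development 2 rose and 3 fell, among them the receptor Notch1 (log2 1.17, adjusted p = 0.00678), which rose, and the inhibitor of differentiation Id2 (log2 -1.32, adjusted p = 0.00974), which fell. For the developmental regulators, the number higher was 0 in the 14-library fit and 1 without PT-ND replicates 2 or 3 or PT-D replicates 2 or 3 or after the length correction, and the number lower was 1 without PT-ND replicates 2 or 3 and 5 in DESeq2. The call of Foxi1 (adjusted p up to 0.0944) was lost without PT-ND replicate 2. The call of Notch1 (adjusted p up to 0.0518) was lost in the 14-library fit.

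Chaperones fold proteins in the cytosol and the endoplasmic reticulum and are induced when unfolded proteins build up. Of 20 genes of the heat shock and unfolded protein response 7 rose and 0 fell (median log2 0.55). BiP (Hspa5), the main chaperone of the endoplasmic reticulum, had 7374, 7025 and 8744 in PT-ND and 16403, 16219.6 and 17153 in PT-D (log2 fold change 1.10, SE 0.15, adjusted p = 0.00375), and its co-chaperone Dnajb9 had 1482, 1471 and 1465 in PT-ND and 2462, 2877 and 3443 in PT-D (log2 fold change 0.99, SE 0.16, adjusted p = 0.00559). For the chaperone list, the number higher was 2 without PT-ND replicate 2 or PT-D replicate 2 or in the 14-library fit, 3 without PT-ND replicate 1 or PT-D replicate 3 and 4 without PT-ND replicate 3. Of 21 immediate early genes 4 rose and 0 fell, led by the Krüppel-like factors Klf2, with 488, 371 and 518 in PT-ND and 1538, 1096 and 952 in PT-D (log2 fold change 1.38, SE 0.21, adjusted p = 0.00464), and Klf4 (log2 1.37, adjusted p = 0.00804). For the early genes, the number higher was 2 without PT-ND replicate 2, and the number lower was 2 in DESeq2 and 4 without PT-D replicate 1.

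Clock genes were called in both directions and cell cycle genes only higher. Of 19 circadian clock genes 4 rose and 1 fell, led by the clock repressor Per2 with 672, 792 and 499.8 in PT-ND and 1639, 1412 and 1949.9 in PT-D (log2 fold change 1.35, SE 0.19, adjusted p = 0.00415). The hour at which each kidney was taken is not given in the labels. For the clock genes, the number higher was 1 without PT-ND replicates 2 or 3 or PT-D replicate 3, and the number lower was 0 without PT-ND replicates 1 or 2 or PT-D replicate 1 or in the 14-library fit and 2 in DESeq2. Of 23 cell cycle genes 3 rose and 0 fell (median log2 1.00), led by cyclin D1 (Ccnd1; log2 0.70, adjusted p = 0.0106) and topoisomerase II alpha (Top2a), the latter at 58.8, 27.7 and 28.2 in PT-ND and 119, 104 and 197 in PT-D (log2 fold change 1.87, SE 0.40, adjusted p = 0.0153). For the cell cycle genes, the number higher was 0 without PT-ND replicate 2, 1 without PT-D replicate 3 and 6 in DESeq2. Of the 23, 12 were higher at an unadjusted p under 0.05, which 6493 of all 22303 genes passed in either direction. The groups did not overlap for 17 of the 23, and for 34.4% of all genes tested. The call of Ccnd1 (adjusted p up to 0.0594) was lost without PT-ND replicate 2 or in the 14-library fit. The call of Top2a (adjusted p up to 0.0627) was lost without PT-ND replicates 2 or 3 or PT-D replicate 3.

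**Figure D3:**
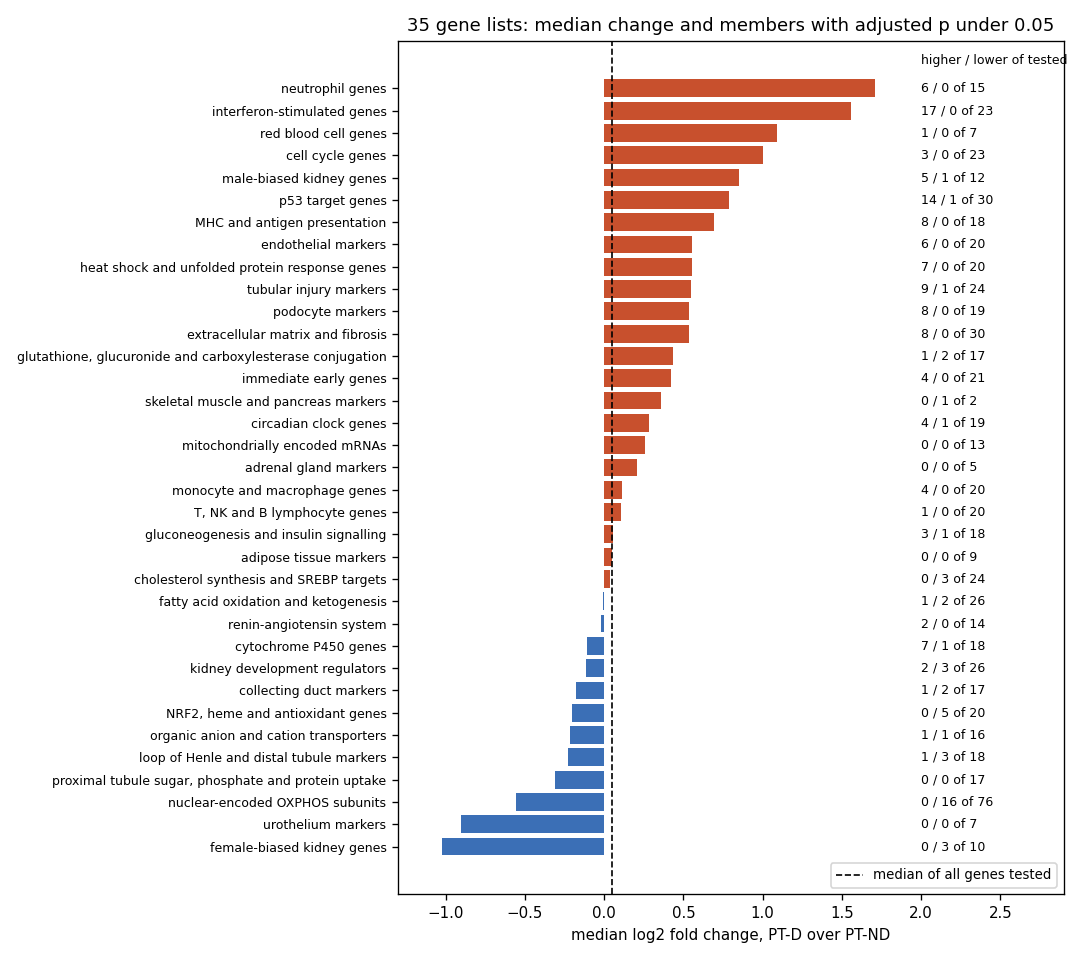
Median log2 fold change of the tested members of each of 35 gene lists, with the number of members higher and lower at an adjusted p under 0.05 written at the right. The dashed line is the median of all 22303 genes tested, 0.05. Neutrophil and interferon-stimulated genes have the highest medians, 1.71 and 1.56, and female-biased kidney genes the lowest, -1.03. The lowest place depends on single libraries. In fits that each left out 1 library the adipose median reached -5.20, and the female-biased median ran from -1.35 to -0.59.

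Subunits of the respiratory chain and ATP synthase that are encoded in the nucleus had mostly negative fold changes. Of 76 subunits 16 fell and 0 rose, and 74 had a fold change below 0 (median log2 -0.55). The complex I subunit Ndufb8 had 2263, 3248 and 4298 in PT-ND and 1465, 1457 and 1702 in PT-D (log2 fold change -1.08, SE 0.21, adjusted p = 0.0115). Atp5mc2, of the rotor ring of ATP synthase, had 3421, 3975 and 5279 in PT-ND and 2668, 2376 and 2357 in PT-D (log2 fold change -0.78, SE 0.18, adjusted p = 0.0195). Most of the 16 calls were small in size, and Ndufb8 was the only DEG among them. PT-ND replicate 3 was the highest library and PT-ND replicate 1 the lowest PT-ND library for both genes. The count of 16 became 1 without PT-ND replicates 2 or 3 or PT-D replicates 2 or 3, 49 without PT-ND replicate 1, and 5 in the 14-library fit, and DESeq2 called 40. The 13 mRNAs encoded in the mitochondrial genome had a median log2 of 0.26. Of these, 0 were called by edgeR and by DESeq2, and 2 were higher at an unadjusted p under 0.05. The median ran from -0.14 to 0.43 over the fits that each left out 1 library. In the other settings it ran from 0.02 to 0.695, with up to 2 of the mRNAs called higher. Without PT-D replicate 1, 1 of them was called higher and 1 lower. The respiratory chain gene mt-Nd5 had 121621, 84003 and 68411 in PT-ND and 96954, 193472 and 148461 in PT-D (log2 fold change 0.68, SE 0.28, adjusted p = 0.139), and was called higher with no filter on low counts and without PT-D replicate 1. The call of Atp5mc2 (adjusted p up to 0.0689) was lost without PT-ND replicates 2 or 3 or PT-D replicates 2 or 3 or in the 14-library fit.

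Fold changes moved with transcript length, and the respiratory subunits are short. Among 12334 genes with a mean of at least 50, the median log2 fold change rose from -0.37 in the fifth of genes with the shortest total exon length (57 to 3521 bases) to 0.27 in the longest (10152 bases and above). Across these genes, which are not independent replicates, Spearman's correlation of length with fold change was 0.33. The median total exon length was 4154 bases for the 76 subunits and 6294 bases for all of these genes. When the trend with length was removed from each library, the median of the subunits was -0.37 and 6 of them were called lower, and the DEGs numbered 969, with 812 of the 1105 among them. For T-D over T-ND the medians ran the other way, from 0.17 in the shortest to -0.06 in the longest. Rn18s-rs5 was lower in PT-D, and the mitochondrial share of counts overlapped between the groups, as given above. The part of transcript length in the results for other genes was tested only by the length correction.

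**Figure D4:**
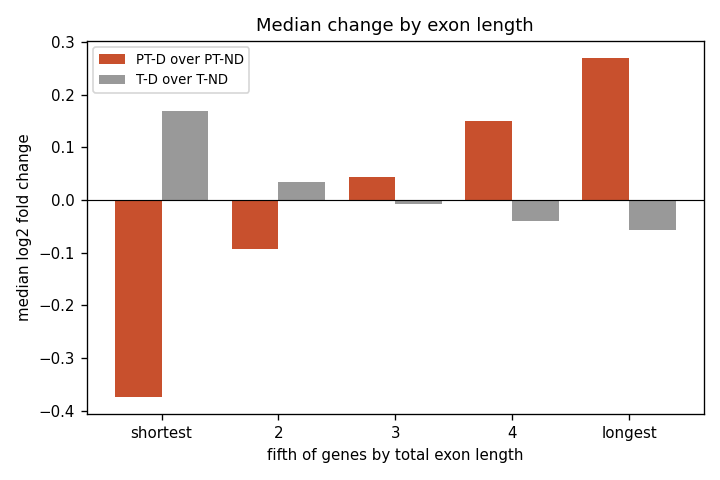
Median log2 fold change in 5 equal groups of 12334 genes ordered by total exon length, orange for PT-D over PT-ND and grey for T-D over T-ND. The orange bars rise from -0.37 in the shortest to 0.27 in the longest genes, and the grey bars fall from 0.17 to -0.06.

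Markers of fat, adrenal gland and urothelium, tissues that could be dissected with the kidney, overlapped between the groups. All 7 tested urothelium markers had a log2 fold change below 0 (median -0.90). At most 1 of these was called lower in a fit that left out 1 library. The summed level of adipose markers was 1309.9 to 8263 in PT-ND and 1193 to 9744 in PT-D, of adrenal markers 83.5 to 114 in PT-ND and 55.3 to 123 in PT-D and of urothelium markers 209.8 to 1695 in PT-ND and 83.5 to 759 in PT-D, and 0 of these 21 tested genes passed the threshold in edgeR or DESeq2, with 1 at an unadjusted p under 0.05. The adipokine gene Adipoq, chosen after its values were seen, was at 0, 73.4 and 349 in PT-ND and 0.971, 356 and 0 in PT-D, so fat differed between kidneys within each group. Adipose markers were highest in PT-D replicate 2, and without it 6 of the 9 were called lower in PT-D. Skeletal muscle and pancreas markers summed to 3616 to 5449.8 in PT-ND and 1968 to 2959 in PT-D, without overlap. Nearly all of this sum was from Cela1, and the pancreas markers Prss2, Cpa1 and Ctrb1 were not tested. Of 8 listed, 2 were tested and 1 was lower, the elastase gene Cela1, at 3786, 3612 and 5446 in PT-ND and 2959, 2920.1 and 1958 in PT-D (log2 fold change -0.71, SE 0.21, adjusted p = 0.0487). Red blood cell genes summed to 769 to 3147 in PT-ND and 3694 to 6794 in PT-D. These sums did not overlap, but by gene only 1 of the 7 tested, Slc25a37, was without overlap, and the globin genes overlapped. Alpha globin (Hba-a1), chosen in the same way, was at 597, 113 and 1170.3 in PT-ND and 2434, 2836 and 1134.5 in PT-D (log2 fold change 1.77, adjusted p = 0.0788). Of these 7 genes 1 rose, the mitochondrial iron importer Slc25a37 (log2 1.09, adjusted p = 0.00375), which many cell types express. The part of blood in the other results was not tested. The call of Cela1 (adjusted p up to 0.173) was lost without PT-ND replicates 2 or 3 or PT-D replicates 2 or 3 or under a stricter count filter or with the filter on the 6 libraries or in the 14-library fit or with library-name suffix as a covariate or after the length correction.

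Whether streptozotocin acted differently in preterm-born than in term-born kidneys was tested as an interaction over all 14 libraries. The interaction is the log2 fold change of PT-D over PT-ND minus that of T-D over T-ND. Term pups were born naturally and stayed with their own mothers, without Caesarean delivery, fostering or acepromazine. The study gave a second streptozotocin course to some female PT-D mice and to no female T-D mice. The interaction cannot tell preterm birth apart from these differences. At an adjusted p under 0.05 the interaction was called for 1392 of 22339 genes (6.23%), 993 of them (4.45%) with an absolute log2 difference above 1. In the same fit 69 genes (0.309%) differed between T-D and T-ND. The interaction uses the same 6 preterm libraries and is no independent support for the changes above. The count of 993 was 283 without PT-ND replicate 2, 111 without PT-ND replicate 3, 324 without PT-D replicate 2 and 76 without PT-D replicate 3. Among the term libraries it was 525, 555 and 433 without T-ND replicates 1, 3 and 4, and 440 and 629 without T-D replicates 3 and 4. Single genes of the interaction were not refitted without these libraries.

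Some genes lay in opposite order in the preterm- and term-born mice, without overlap in either. For the preterm groups, lack of overlap was a condition for choosing them. Prr7, a proline-rich membrane protein, was at 19.2 to 39.8 in T-ND and 59.4 to 109.8 in T-D, but at 115 to 144 in PT-ND and 33.7 to 51.2 in PT-D, on the 14-library scale (interaction -3.21, SE 0.43, adjusted p = 0.00474). Tnip3, a partner of the NF-kappaB inhibitor A20, was at 7.31 to 11.8 in T-ND, 18.0 to 77.0 in T-D, 57.7 to 262 in PT-ND and 9.12 to 17.6 in PT-D (interaction -5.72, SE 0.77, adjusted p = 0.00474). Ch25h was at 53.7 to 84.0 in T-ND, 111 to 177 in T-D, 215 to 247 in PT-ND and 30.8 to 52.0 in PT-D (interaction -3.36, SE 0.36, adjusted p = 0.0009). The non-coding RNA 4931408D14Rik was the mirror image, at 107 to 221 in T-ND, 33.5 to 47.2 in T-D, 45.9 to 65.6 in PT-ND and 114 to 216 in PT-D (interaction 3.73, SE 0.42, adjusted p = 0.000991). In these 4 genes PT-ND was near T-D, or beyond it, and PT-D near T-ND.

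The p53 targets had a positive median in both settings. Their median log2 fold change was 0.69 for T-D over T-ND and 0.79 for PT-D over PT-ND, and the interaction was called for 1 of 30, Zmat3 (1.00, SE 0.23, adjusted p = 0.0301). The Eda2r effect differed by 0.98, SE 0.66, adjusted p = 0.389, and the Ccng1 effect by -0.04, SE 0.22, adjusted p = 0.935. Interferon-stimulated genes had a median of 0.81 in term-born mice, and the interaction was called for 1 of 23, Ifi44 (1.91, SE 0.50, adjusted p = 0.0379). Respiratory chain subunits had a median of 0.42 in term-born mice, against -0.55 in preterm-born mice, and the interaction was called for 25 of 76. Ndufb8 was at 2507 to 3029 in T-ND and 2800.5 to 4711 in T-D. The highest T-D value was in replicate 4, as for Atp5mc2, with 6979 against 3137 to 3820 in the other T-D libraries. The part of T-D replicate 4 in the term median was not tested.

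Hmox1 and Havcr1 set some libraries apart across the series. On the 14-library scale Hmox1 was at 27214 to 76462 in the 6 preterm libraries and at 79420 and 72243 in T-ND replicates 1 and 2, but at 1539 to 6651 in the other 6 term libraries. Havcr1 was at 2638, 2475 and 1304 in T-ND replicates 1 to 3, at 1599 and 1312 in PT-D replicates 2 and 3, and at 39.6 to 202 in the other 9 libraries. Without T-ND replicates 1 and 2 the interaction was called for 643 genes with an absolute log2 difference above 1. The part of these libraries in the results for single genes was not tested.

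**Figure D5:**
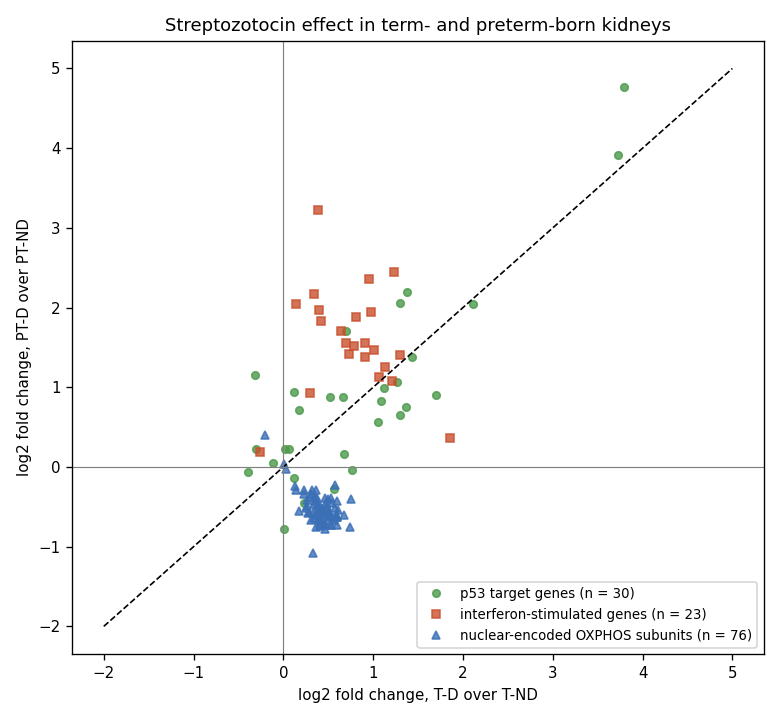
Log2 fold change after streptozotocin in preterm-born kidneys (vertical) against term-born kidneys (horizontal) in the fit of all 14 libraries, 1 point per gene, for 30 p53 target genes (green circles), 23 interferon-stimulated genes (orange squares) and 76 nuclear-encoded respiratory subunits (blue triangles). The dashed line marks equal effects. The p53 targets lie around the line, most interferon-stimulated genes above it, and most respiratory subunits below it.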

How the data were processed

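Whole-kidney poly-A RNA was sequenced without strand information, 1 library per mouse. The authors aligned reads with STAR (version not given in the sources used here) to GRCm39 and deposited raw counts per gene; the unstranded counts of all 14 libraries were used here, without the summary lines for unmapped, multimapping and ambiguous reads. Their own comparisons used DESeq2 and were not used here. Of 56980 gene identifiers, 56236 were named through GENCODE M39 after dropping the version number. Genes with a total count above 10 over the 14 libraries were kept.

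PT-D and PT-ND were compared with the quasi-likelihood test of edgeR 4.0.16 (R 4.3.3, TMM scaling, Benjamini-Hochberg adjustment over all genes tested), and the interaction with term birth was fitted over all 14 libraries. The SE is the log2 fold change divided by the square root of F. Genes are called changed at an adjusted p under 0.05, and DEGs also have an absolute log2 fold change above 1. The labels do not say whether litters were shared, so p-values measure the spread between these mice. On simulated data with 200 genes changed 4-fold, that is by 2 on the log2 scale, 88.0% were recovered for PT-D against PT-ND. There were 19 false calls among 22207 genes. For the interaction 68.5% were recovered, with 6 false calls among 22338 genes. The changed genes were drawn above a minimum mean count, and smaller changes were not simulated. The DEGs had a median absolute log2 fold change of 1.46 (higher) and 1.41 (lower). Libraries held 18188647 to 26187982 counts, and 3 counts, the limit that a count of 0 allows (counting error only), correspond to 2.40 to 3.68 normalized counts.

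Genes were named by rule: the 12 DEGs per direction with the smallest adjusted p, a mean of at least 50 and no overlap between groups, up to 4 members of each of 35 gene lists by p, a fixed set of diabetes and kidney anchors, and up to 3 genes per direction of the interaction. The lists and the rule were chosen with earlier results of these data known. Some genes that the rule names are not reported here. Genes named outside it are given as chosen after their values were seen. Promoter sequences came from RefSeq (GRCm38.p6). The other settings tried were 3 other count filters, DESeq2 1.42.0, scaling by RLE or by the upper quartile, the 14-library fit, a library-name suffix as covariate, mitochondrially encoded genes left out, a replicate block and each library left out. A correction for exon length (the trend of log counts with length removed from each library as an offset) and an interaction fit without T-ND replicates 1 and 2 were added after seeing the data. Figures were drawn with matplotlib 3.10.9.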

Additional observations from a re-analysis of the deposited data

Results flagged for a closer look

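The interaction test of the 14 libraries gave an adjusted p under 0.05 for 36 of the genes named above, that is the streptozotocin effect of preterm-born mice minus that of term-born mice differed from 0. Values here are log2 differences from edgeR. All preterm values share their 6 libraries with the comparison in the report.

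Among the genes higher in PT-D, the difference was 3.82 for Lama3, 4.40 for Gm21399, 2.73 for Trim12c, 2.09 for Nrg1, 2.99 for H2-T24, 2.09 for Uba7, 1.91 for Ifi44 and 1.00 for Zmat3. It was 1.94 for Flt4, 2.16 for Egfl7, 1.06 for Slc25a37, 1.34 for Hspa5, 0.91 for Dnajb9, 3.70 for Mmp9, 0.94 for Cd2ap, 1.54 for Klf4, 1.19 for Foxi1 and 3.73 for 4931408D14Rik. For Havcr1 it was 7.18, with 1 PT-D kidney and 1 T-ND kidney apart from the others of their group.

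Among the genes lower in PT-D, the difference was -2.47 for Vwa1, -1.87 for Nap1l5, -1.32 for Acy1, -2.49 for C330002G04Rik, -3.21 for Catspere2, -3.36 for Ch25h, -3.31 for Rn18s-rs5 and -1.31 for Gstp1. It was -5.72 for Tnip3, -3.21 for Prr7, -2.95 for Ccl2, -0.92 for Acaa1b, -1.41 for Ndufb8, -1.24 for Atp5mc2, -1.46 for Cela1 and -1.52 for Ftl1. The fitted difference of -14.95 for BC018473 rests on groups at or near 0 and on the prior count of the fit, and is no measure of size.

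In T-D, BC018473 had 2.44 normalized counts in replicate 2 and 0 in the other 3 libraries, so Dixon's criterion marked that library. With the others tied at 0, any count above 0 would have been marked, so the mark carries no weight.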

How the results depend on the processing

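None of the 105 genes named by the rule changed direction under the alternatives run. Kap, Slc7a12, Adipoq and Hba-a1, chosen after their values were seen, were not refitted. Of 96 genes named by the rule that were called, 64 were called in every fit, and 23 lost their call without PT-ND replicate 2, 18 without PT-ND replicate 3, 10 without PT-D replicate 3 and 21 in the 14-library fit. DESeq2 ended none of these calls. The 1105 DEGs became 969 to 1501 under other tools, scalings, filters and covariates, apart from 877 in the 14-library fit and 2881 with no limit on the fold change. Leaving out each library in turn gave 594 to 1419 DEGs, 364 to 817 higher and 193 to 602 lower in PT-D. For the 993 interaction genes (443 higher and 550 lower), DESeq2 gave 1648, of which 992 were lower. Without T-ND replicates 1 and 2 the interaction gave 643, of which 251 were lower, and leaving out each library in turn gave 76 to 1241, 49 to 503 higher and 27 to 747 lower. The cause of these shifts was not tested.

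The replicate numbers did not pair the samples: deviations of same-numbered PT-ND and PT-D libraries from their group means correlated at 0.064, 0.061 and -0.099. With replicate number as a block there were 1290 DEGs, 722 higher and 568 lower, and 563 interaction genes, 273 higher and 290 lower, and none of the 96 named genes lost its call. Umod, not called without the block, was called lower with it (adjusted p = 0.0488). The block changed the number called lower from 16 to 9 for nuclear-encoded OXPHOS subunits, 0 to 3 for the renin-angiotensin system and for urothelium markers, 0 to 2 for neutrophil and for immediate early genes, 1 to 5 for the organic anion and cation transporters, 1 to 4 for cytochrome P450 genes, 1 to 3 for clock genes, 1 to 2 for male-biased genes, 2 to 5 for collecting duct markers, 2 to 4 for fatty acid oxidation and for conjugation, and 3 to 7 for female-biased genes. It changed the number called higher from 3 to 5 for cell cycle genes, 1 to 3 for red blood cell genes, and 1 to 2 for lymphocyte genes, distal tubule markers, fatty acid oxidation and conjugation. How far depth and the spread between mice each limited the calls, with 3 libraries a group, was not tested.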
